A study of Mus musculus with 12 samples.

Results

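The striatal neuron genes described here are Drd1, Drd2, Adora2a, Ppp1r1b, Rgs9, Pde10a, Gng7 and Isl1, 8 of the 50563 genes counted in cortex RNA of 12 mice. They are genes of striatal projection neurons chosen by their counts in these libraries, which varied between the dissections, so their spread between mice is given as a description with no test. All 8 passed the filter on low counts that left 15688 genes for testing.

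Projection neurons of the striatum receive dopamine from the midbrain and fall into a direct pathway type that carries the dopamine receptor Drd1 and an indirect pathway type that carries the dopamine receptor Drd2 with the adenosine receptor Adora2a. Drd1 and Adora2a raise cyclic AMP and Drd2 lowers it, and the phosphodiesterase Pde10a and the phosphatase inhibitor Ppp1r1b (DARPP-32) act further along the same route. The striatum lies beneath the cortex, separated from it by white matter, and some of these genes, among them Ppp1r1b and Drd1, are also transcribed in deep-layer cortical neurons.

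The mice were E4FAD animals, with human APOE4 in place of mouse Apoe on both copies and hemizygous 5FAD transgenes, which are driven by a neuronal promoter. The CTRL group held 7 mice (4 females and 3 males) given the vehicle alone, and the DPAn-6 group held 5 mice (3 females and 2 males) given 700 mg/kg of the n-6 docosapentaenoic acid by oral gavage daily for 3 weeks. The vehicle of both groups carried 0.1% of each of the antioxidants tocopherol and palmitoyl ascorbate. CTRL mice were 12 months (2 mice) or 14 months old (5 mice), as were DPAn-6 mice (2 and 3 mice), and no wild-type or untreated animals were among the 12. Sex was known here by group only and entered no fit, and 1 hemisphere of each brain was dissected after perfusion.

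Total counts were 15339098 to 19500154 in CTRL and 15208803 to 26520251 in DPAn-6. CTRL replicate 3 stood apart from its group, with a median chi-square per gene of 80.5 against its groupmates where the next highest CTRL mouse had 38.2. Slc17a7, the vesicular glutamate transporter of cortical excitatory neurons, lay at 10.25 to 10.99 log2 CPM in all 12 libraries. Choroid plexus genes were also present, unevenly: the mean of the 7 genes tested of a list of 11 was 5.46 in CTRL replicate 2, 4.84 in CTRL replicate 5 and 3.43 in CTRL replicate 3, and at most 1.51 in the other mice.

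The sequences just before Drd1, Drd2 and Rgs9 are shown because these 3 genes, which moved together between mice, span the direct type, the indirect type and the signalling shared by both. The windows are RefSeq sequence of GRCm38.p6, lie before the annotated gene, and are written in the direction of transcription. The table gave a window for 6 of the 8 genes, and 2 for some, among them Drd1, whose other window lies inside the annotated gene, holds 1 GC box and is not shown. Capitals mark the GC box (GGGCGG, or CCGCCC on the other strand), which 32.7% of 32851 promoter windows hold.
Drd1, chr13:54055706-54055908, minus strand: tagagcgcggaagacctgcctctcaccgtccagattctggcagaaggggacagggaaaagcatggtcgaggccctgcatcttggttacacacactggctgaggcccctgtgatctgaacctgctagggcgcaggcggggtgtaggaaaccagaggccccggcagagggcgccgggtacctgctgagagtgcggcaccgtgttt
Drd2, chr9:49340153-49340402, plus strand: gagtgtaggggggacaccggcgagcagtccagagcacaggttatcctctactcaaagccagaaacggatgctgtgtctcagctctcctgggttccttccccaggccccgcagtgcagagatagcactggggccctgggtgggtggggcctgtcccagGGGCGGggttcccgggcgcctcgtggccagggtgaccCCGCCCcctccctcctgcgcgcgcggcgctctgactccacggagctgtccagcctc
Rgs9, chr11:109298182-109298431, minus strand: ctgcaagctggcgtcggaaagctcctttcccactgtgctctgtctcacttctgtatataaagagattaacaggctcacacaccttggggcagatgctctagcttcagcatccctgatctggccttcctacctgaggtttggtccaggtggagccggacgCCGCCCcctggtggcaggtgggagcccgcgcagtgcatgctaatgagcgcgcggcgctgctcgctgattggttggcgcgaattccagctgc
The Drd1 window shown holds no GC box, the Drd2 window 2 and the Rgs9 window 1. The Rgs9 window also holds 1 TATA box (TATAAA), found in 12.4% of windows.

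Per length of exon, Ppp1r1b was the most abundant of the 8, at 58.4 ± 18.6 CPM per kb (SD, n = 12). Gng7, a G protein gamma subunit, followed at 41.8 ± 11.4 CPM per kb. Their spreads between mice overlap, but both were measured in the same libraries. In CTRL replicate 3, the lowest mouse for both, Ppp1r1b was 28.2 and Gng7 21.8 CPM per kb. In CTRL replicate 1, the highest for both, they were 100 and 67.1. Pde10a was lower, at 11.1 ± 3.18 CPM per kb. Drd2 (5.46 ± 3.07), Adora2a (5.37 ± 2.88), Rgs9 (4.89 ± 2.02) and Drd1 (4.78 ± 1.68) lay within 1 SD of one another on the same scale. Isl1, a LIM homeodomain factor of striatal precursors and of direct pathway neurons, was far below all of them at 0.140 ± 0.0773 CPM per kb, with only 1 to 19 counts in a library.

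Drd1 lay at 3.34 to 4.65 log2 CPM in CTRL, with a median of 3.75. In DPAn-6 replicates 1 to 5, Drd1 was 3.38, 4.53, 4.58, 4.55 and 4.60. DPAn-6 replicates 2 to 5 therefore clustered closely at the level of CTRL replicate 1, the highest control, and DPAn-6 replicate 1 lay among the lowest controls, so the groups overlap.

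Drd2 was 1.79 to 4.85 log2 CPM in CTRL, with a median of 3.14, and 2.35, 4.18, 4.25, 4.44 and 4.04 in DPAn-6 replicates 1 to 5. CTRL replicate 5 was the lowest mouse and CTRL replicate 1 the highest, an 8.36-fold difference, and the groups again overlap. Adora2a, the receptor that stands beside Drd2 on indirect pathway neurons, was 2.34 to 5.02 log2 CPM in CTRL, with a median of 3.57. Its DPAn-6 values were 2.69, 4.47, 4.50, 4.33 and 4.70. CTRL replicates 3 and 5 and DPAn-6 replicate 1 were the 3 lowest mice for Adora2a.

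Ppp1r1b was 6.37 to 8.20 log2 CPM in CTRL, with a median of 7.37, and 6.75, 7.50, 7.69, 7.49 and 7.56 in DPAn-6. CTRL replicate 3 was the lowest of all and CTRL replicate 1 the highest. Rgs9, a regulator that ends G protein signalling in these neurons, was 3.74 to 5.71 in CTRL with a median of 4.59, and 4.02, 5.30, 5.38, 5.36 and 5.37 in DPAn-6. Its 4 higher DPAn-6 mice differed by only 0.08 on the log2 scale. Pde10a was 6.57 to 7.70 in CTRL, with a median of 6.91, and 6.29, 7.51, 7.48, 7.38 and 7.45 in DPAn-6. DPAn-6 replicate 1 was the lowest of the 12 mice for this gene.

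Gng7 was 6.37 to 7.99 log2 CPM in CTRL, with a median of 7.40, and 6.79, 7.40, 7.37, 7.43 and 7.39 in DPAn-6. The 4 higher DPAn-6 mice lay within 0.07 of one another, at the middle of the controls. Isl1 was -3.35 to 0.03 in CTRL, with a median of -1.13, and -2.03, -0.11, -0.03, -0.53 and -1.09 in DPAn-6, where the lowest CTRL value stands for 1 count.

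**Figure D1:**
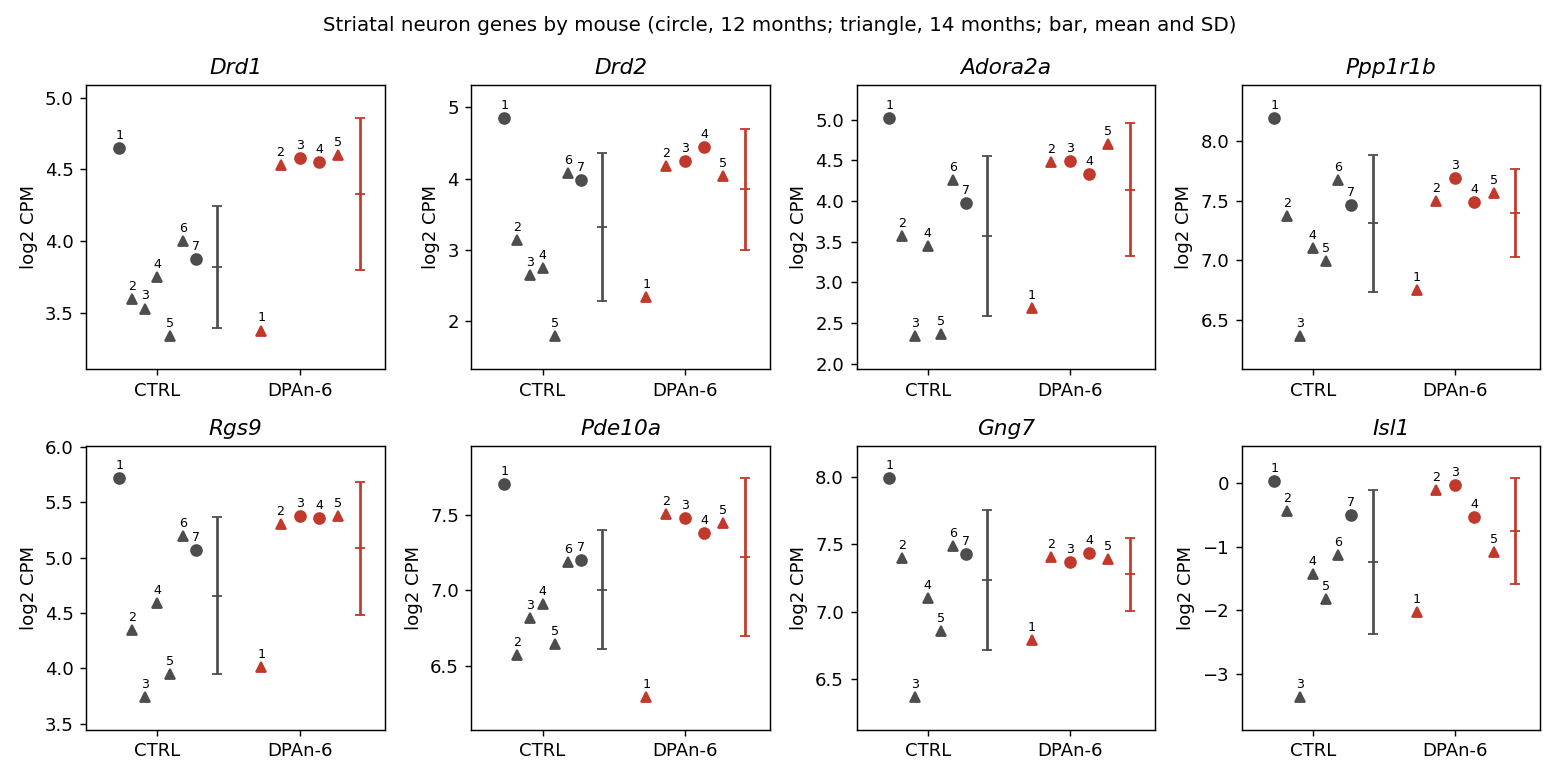
Level of each striatal neuron gene in every mouse, in log2 CPM, by group (grey CTRL, red DPAn-6). Circles are 12-month and triangles 14-month mice, numbers are replicates, and bars show the mean and SD. CTRL replicate 1 sits at the top of all 8 panels and DPAn-6 replicate 1 at the bottom of its group in each.

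The highest mouse exceeded the lowest by 2.48-fold for Drd1, 2.66-fold for Pde10a, 3.07-fold for Gng7, 3.55-fold for Ppp1r1b, 3.92-fold for Rgs9, 6.43-fold for Adora2a and 8.36-fold for Drd2. Isl1 gives a ratio of 10.5, with 1 count in its lowest library. Without CTRL replicate 3, the mouse that stood apart, the fold range was 4.19 for Isl1, 2.29 for Gng7, 2.72 for Ppp1r1b, 3.40 for Rgs9 and 6.31 for Adora2a, and those of Drd1, Drd2 and Pde10a did not move. Of all genes tested, 35.7% had more than a 2-fold range between these mice, a share beside which nothing is read, since the range chose the members.

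The 8 genes varied together. Over the 28 pairs, Pearson's r across 12 mice was 0.65 to 0.98, with a median of 0.90, and the pairs share the same libraries and depths. The closest pair was Adora2a with Rgs9 (0.98), and the least alike was Pde10a with Isl1. The mean of the 8 genes, each centred on its own mean, was 0.91 in CTRL replicate 1, and was -1.05 in CTRL replicate 3, -0.84 in CTRL replicate 5 and -0.83 in DPAn-6 replicate 1. These 3 low mice were all 14 months old, and CTRL replicate 5 and DPAn-6 replicate 1 were among the lowest 3 for all 8 genes. In bulk RNA, fewer cells of a type and less RNA per cell cannot be told apart.

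The study asked what DPAn-6 changes in these cortices, and for the striatal neuron genes no difference between the groups passed the test. By edgeR's quasi-likelihood test with Benjamini-Hochberg adjustment over 15688 genes, 0 of 8 were called, beside 1.55% of all genes. At an unadjusted p under 0.05 it was 1 of 8, Drd1, beside 14.5% of all genes, and DESeq2 and limma-voom called 0 of 8 adjusted and 1 and 0 unadjusted. Exact permutation tests of each gene's mean log2 CPM, two-sided, over 792 splits of the mice, gave 0 of 8 under 0.05, beside 15.8% of all genes, where the smallest possible p is 0.00126. The groups overlapped in all 8 genes, while 3.22% of all genes had none.

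Drd1 was higher in DPAn-6 by 0.49 on the log2 scale (SE 0.23), with an unadjusted edgeR p of 0.045 and an edgeR adjusted p of 0.331 (0.59 and 0.515 in 14-month mice alone). Its exact permutation p was 0.095, and the group means were 3.82 ± 0.43 in CTRL (SD, n = 7) and 4.33 ± 0.53 in DPAn-6 (SD, n = 5). The log2 fold changes of the others were 0.43 for Adora2a, 0.35 for Drd2, 0.34 for Rgs9, 0.32 for Isl1, 0.21 for Pde10a, 0.01 for Ppp1r1b and -0.03 for Gng7, with edgeR adjusted p from 0.688 to 0.998. Their standard errors were 0.21 to 0.45. With each mouse left out in turn the values were 0.28 to 0.77 for Adora2a, 0.19 to 0.71 for Drd2, 0.23 to 0.57 for Rgs9, 0.12 to 0.58 for Isl1 and 0.14 to 0.39 for Pde10a, of which the highest was without DPAn-6 replicate 1 for Pde10a and without CTRL replicate 1 for the rest. The 95% intervals were wide for Isl1 (-0.63 to 1.27), Drd2 (-0.58 to 1.28) and Adora2a (-0.45 to 1.30), and narrower for Gng7 (-0.47 to 0.41).

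Of the 8 log2 fold changes 7 were positive, as were 48.7% of those of all genes. The 8 genes vary together, so their signs are not separate results. The direction turned with the sample set for 2 genes: leaving out each mouse in turn gave -0.11 to 0.19 for Ppp1r1b and -0.14 to 0.12 for Gng7. For Gng7 the difference of the group means was 0.04, opposite in sign to the fitted value. In DPAn-6 replicates 2 to 5, and also in CTRL replicates 1, 6 and 7, every one of the 8 genes lay above the CTRL mean. In DPAn-6 replicate 1 all 8 lay below it, and in no DPAn-6 mouse did a gene lie above all controls. The SD was higher in DPAn-6 than in CTRL for Drd1 (0.53 against 0.43) and Pde10a (0.52 against 0.39), and lower for the rest. CTRL held replicate 3, the library that stood apart, and the share over all genes was not computed. Nothing is therefore read from the lower SDs.

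**Figure D2:**
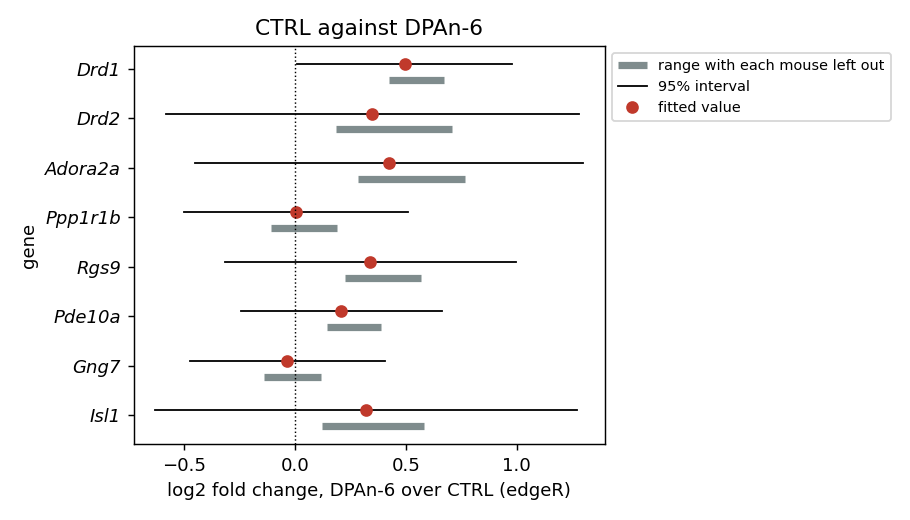
Log2 fold change of DPAn-6 over CTRL for the 8 genes from edgeR. Points are the fitted values, thin lines the 95% intervals and thick bars the range with each mouse left out in turn, which crosses 0 for Ppp1r1b and Gng7.

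Age was compared because the lowest mice were old, a choice made with the values known. All 8 genes were lower at 14 than at 12 months in a fit with group as a term, by 0.43 for Gng7 to 1.05 for Drd2 on the log2 scale. Unadjusted p was below 0.05 for 7 of 8, beside 1.78% of all genes, and nothing is read from this count, since age was picked from where the low mice fell and the 8 genes vary together. No gene of the 8, and 0 of the 15688 tested, passed adjustment. The count rests on few mice: without CTRL replicate 1, a 12-month mouse, it was 0 of 8, without CTRL replicate 5 it was 3 and without DPAn-6 replicate 1 it was 4. The interaction of group and age gave an edgeR adjusted p of 0.905 or more for every member.

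Other striatal genes followed the same mice. Of a list of 31 genes, 30 were matched and 29 tested, and 15 of the 29 had r above 0.8 with the mean of the 8, beside 0.3% of all genes tested. The mean of the list tracked the members' mean closely (r 0.99, rho 0.96, and 0.99 without CTRL replicates 3 and 5, the 2 mice farthest from the median), with no p given because the list and the members were chosen with results known. Most alike were Syndig1l (r 0.98) and Gpr6 (0.98), an orphan receptor of indirect pathway neurons, then Lrrc10b (0.96), Rxrg (0.96), Slc35d3 (0.94), Rarb (0.92) and Tac1 (0.90), the substance P precursor of direct pathway neurons.

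Serpina9, the lincRNA Gm42456 and the substance P receptor Tacr1, which are in no list, were also among the 10 nearest genes at 0.95, 0.93 and 0.92. Their counts in a library were low, at 9 to 104, 7 to 22 and 29 to 113. The transcription factors Ebf1 (r -0.26), Foxp1 (0.06), Meis2 (0.15) and Bcl11b (0.26) had low r with the members' mean over the 12 mice. Ebf1, Foxp1 and Meis2 were highest in CTRL replicate 3, the library where the members' mean was lowest, and without CTRL replicates 3 and 5 their r was 0.40, 0.56 and 0.64, and that of Bcl11b was 0.82. Other genes of the list went the other way without those mice. Their r fell from 0.41 to 0.05 for Zfp503, 0.63 to 0.18 for Ptpn5, 0.59 to 0.33 for Chrm4 and 0.72 to 0.51 for Tmem158. None of the 29 genes was called between the groups. Their median log2 fold change was 0.19, with 24 positive and 5 negative, against 0.33 for the 8 members and -0.005 for all genes. The mean of these genes followed the same mice as the members' mean, so the signs are not separate results. The lowest edgeR adjusted p was 0.168, for the muscarinic receptor Chrm4.

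**Figure D3:**
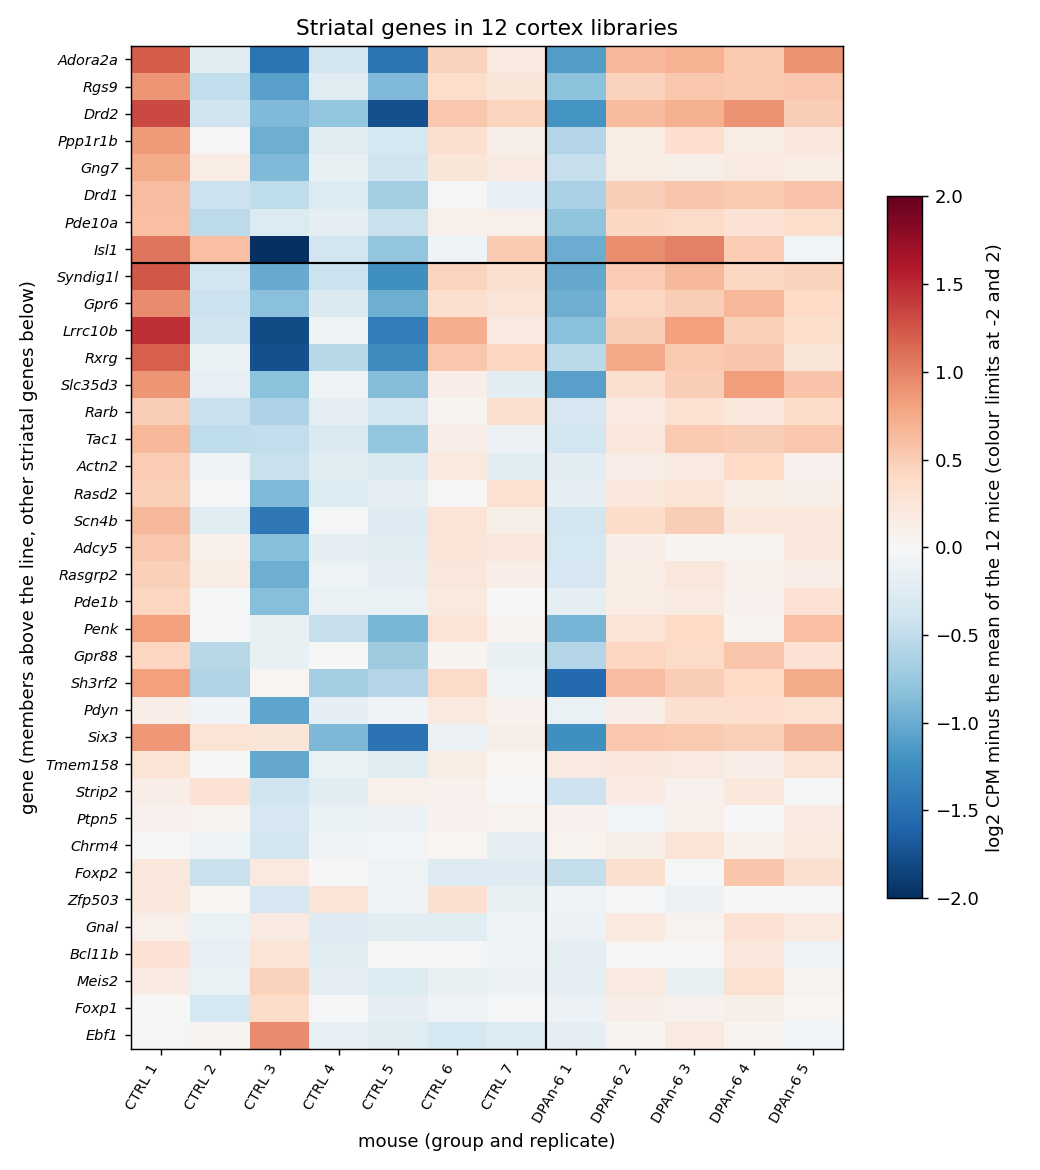
Level of the 8 members (above the line) and of other striatal genes (below) in each mouse, as log2 CPM minus the mean of the 12 mice, with colours limited at -2 and 2. CTRL replicate 1 is mostly red and CTRL replicates 3 and 5 and DPAn-6 replicate 1 are mostly blue, while Ebf1 is red in CTRL replicate 3.

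The enzymes and receptors that act with these genes, but are not particular to the striatum, showed less of the pattern. Of 30 genes, 29 were tested, 0 were called and the median log2 fold change was 0.10, with 0 genes above an r of 0.8. The 2 lowest adjusted p were those of Pde2a (-0.53, edgeR adjusted p = 0.070), a phosphodiesterase, and of the adenylyl cyclase Adcy1 (-0.32, 0.089). Pde2a had only 44 to 110 counts in a library. Gnb5, the obligate partner of Rgs9, differed by 0.22 (edgeR adjusted p = 0.334), and the other dopamine receptor tested, Drd5, by 0.30 (0.689). The mean of the 29 had r 0.50 with the members.

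Markers of neighbouring cells were read beside them. For cholinergic neurons, of which the striatum holds interneurons, 5 genes of a list of 8 were tested. Their mean rose and fell with the members (r 0.93, rho 0.98, and 0.96 without CTRL replicates 3 and 5). Of the 5 genes, 2 had r above 0.8. Counts in a library were low, 1 to 33 for Slc18a3, 2 to 23 for Slc10a4 and 3 to 41 for Chat. Ecel1 and Slc5a7, the choline transporter, the most abundant of them, had r of 0.80 and 0.54, and 0.55 and 0.74 without CTRL replicates 3 and 5. Markers of cortical layers 2 to 5 ran the other way (r -0.76, and -0.53 without CTRL replicates 3 and 5), over a span of only 5.83 to 6.09 in log2 CPM. The highest of these means was in CTRL replicate 3.

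Layer 6 markers had r 0.42, cortical excitatory markers -0.21 and oligodendrocyte markers 0.60, with 0.43 without those 2 mice. Choroid plexus genes had r -0.55, which was -0.23 without them, and were low in DPAn-6 replicate 1 (0.60), a mouse with low members. Their part in the members' levels was not tested. Between groups, 1 of the 8 cortical excitatory markers was called, Nrn1 (0.42, edgeR adjusted p = 0.026), and 3 of 8 microglia markers were called lower, Olfml3 (-1.19), Tmem119 (-0.77) and Csf1r (-0.50). Of the remaining lists, hippocampus, thalamus, claustrum, neuroblast, GABA neuron, astrocyte, endothelium and red blood cell markers had r of -0.37, -0.38, 0.22, -0.17, 0.29, -0.16, 0.47 and -0.00 with the members' mean and no gene called.

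**Figure D4:**
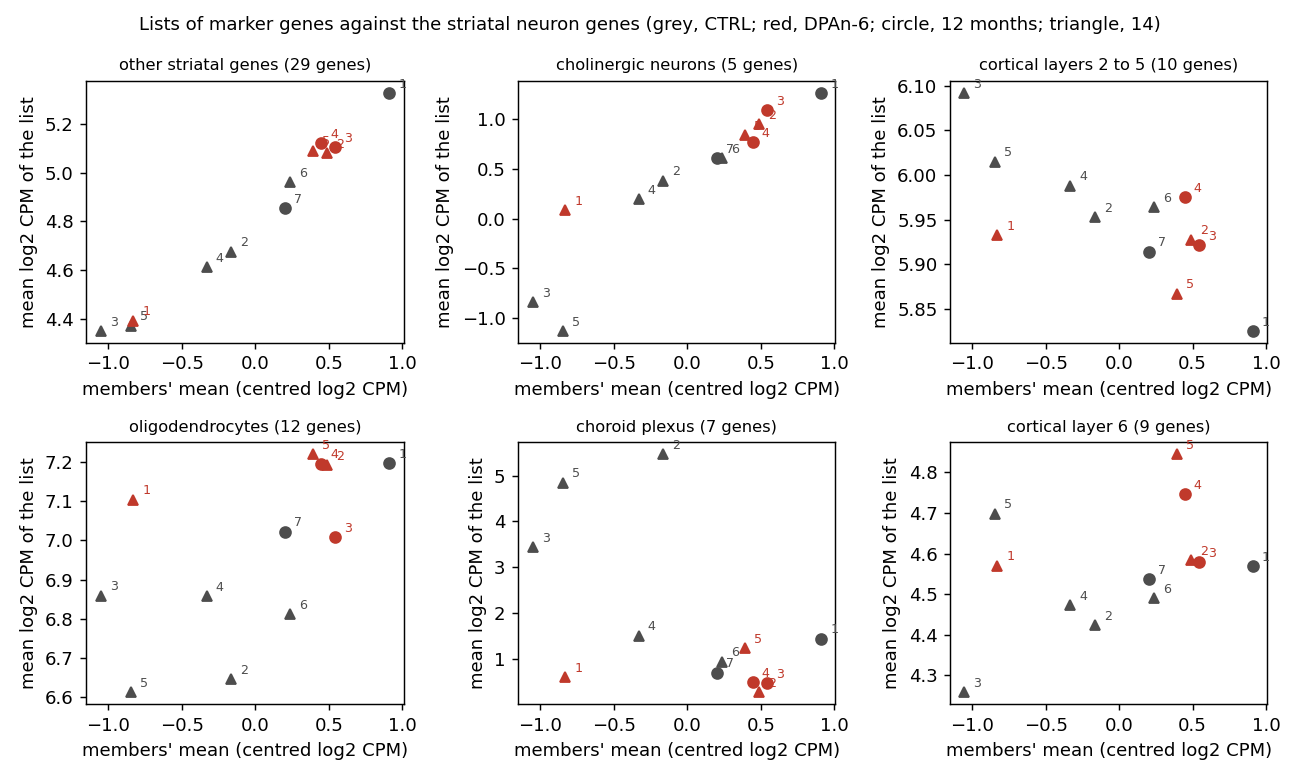
Mean log2 CPM of 6 marker lists in each mouse against the members' mean (centred log2 CPM), with grey for CTRL, red for DPAn-6, circles for 12 and triangles for 14 months. The other striatal and cholinergic lists rise with the members, and the layer 2 to 5 list falls.

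The genes whose levels ran most opposite to the members' mean were Ccdc62 (r -0.88), Tenm2 (-0.88), Camk2d (-0.85), Ccdc171 (-0.83) and Scml4 (-0.82), all highest in CTRL replicate 3. With the members' mean as a covariate, edgeR called 194 genes between the groups, of which 171 were among the 243 called without it (70.4% of the 243 and 88.1% of the 194).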

How the data were processed

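The authors made poly(A) libraries from cortex of one hemisphere of perfused mice and sequenced them on a HiSeq instrument, and the submitters' processing notes name STAR 2.5.3a, GRCm38 and mm10. The deposited values are raw counts of reads per gene for each mouse, not normalized, and no source used here gives the strand setting, so reads of overlapping and antisense genes cannot be told apart. No column belonged to another series.

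Symbols came from GENCODE M21 (50339 of 50563 identifiers matched). Levels are log2 CPM with 0.5 added to each count, scaled to the total count of the library. Groups were compared with edgeR 4.0.16 (TMM, filterByExpr, quasi-likelihood test) on all 12 mice; limma 3.58.1 and DESeq2 1.42.0 were alternatives. Tested on 5 simulated count sets, each holding 200 genes with a log2 change of 1, the fit recovered 88.2% with 5.35% false calls. Those sets drew each gene independently and held no library that stood apart. The 8 members vary together and had fitted changes smaller than 1, so these rates do not carry over to them. Nothing says whether mice shared litters or cages, so it is not known whether the mice were independent, as the p-values assume. The members and gene lists were chosen with earlier results of these data known. Named were the 8 members, called genes of each list, the striatal and signalling lists, and the 10 nearest and 5 most opposite genes by r. For other lists the rule took the 2 most abundant genes, of which only those of the cholinergic list and Slc17a7 are given and the rest are covered by their list's mean. The comparison of ages and the leave-one-out of the spread were added after the values were seen. Gpr52 is not analysed here.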

Additional observations from a re-analysis of the deposited data

Results flagged for a closer look

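Among the 5 DPAn-6 mice, replicate 1 lay below the other 4 by more than Dixon's limit for 5 samples (0.71), with the gap to its nearest neighbour over the group's range at 0.943 for Drd1, 0.810 for Drd2, 0.816 for Adora2a, 0.787 for Ppp1r1b, 0.942 for Rgs9, 0.898 for Pde10a and 0.896 for Gng7. The ratio was 0.893 for the mean of the 8 striatal neuron genes and 0.945 for the mean of the other striatal genes, so these are views of the same mouse and not separate results. The GABA neuron mean stood apart in DPAn-6 replicate 3, the highest, at 0.726, and the red blood cell mean in DPAn-6 replicate 2, the highest, at 0.748. Chance gives about 1 in 20 such results among independent groups, and 54 groups were examined with 11 past the limit. The 8 genes were chosen for their spread and vary together. For them the limit only describes DPAn-6 replicate 1 and is no test, and nothing is read from the 11.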

How the results depend on the processing

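No striatal neuron gene was called under any alternative tried, and the count of genes called in the whole table was less steady: 243 as reported, 9 in 14-month mice alone, 696 with DESeq2 and 64 to 953 with each mouse left out, the extremes being without DPAn-6 replicate 3 and without CTRL replicate 3. The signalling partners went from 0 called to 3 with DESeq2 (Pde2a, Adcy1 and Cdk5r1) and 0 to 3 with each mouse left out, the 3 being Pde2a, Adcy1 and Adcy9 without CTRL replicate 3. The cause was not tested.

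The labels name no pairing of mice by replicate number. The deviations of mice with the same number correlated at 0.09, 0.02, -0.13, 0.22 and -0.07, which cannot show whether they were paired. With the replicate block 69 genes were called, against 148 for replicates 1 to 5 without the block, and 0 of the 8 members in either. The block gave log2 fold changes of 0.91 for Drd2, 0.85 for Adora2a and 0.65 for Rgs9, with edgeR adjusted p of 0.521, 0.538 and 0.514. For the same mice without the block the log2 fold changes were 0.55, 0.56 and 0.50.

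The log2 fold change of Ppp1r1b was -0.022 with age as covariate and ranged from -0.11 to 0.19 with each mouse left out. Gng7 was 0.11 in 14-month mice, 0.019 by limma-voom, 0.12 with the replicate block and 0.033 for the same mice without it, and -0.14 to 0.12 with each mouse left out. Drd1 passed an unadjusted 0.05 in 8 of 21 alternatives, with 0.67 and an edgeR adjusted p of 0.146 without DPAn-6 replicate 1. With 1 to 19 counts per library, Isl1 has little precision.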
